A study of Mus musculus with 6 samples.

Results

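Regulators of G protein signalling (RGS proteins) are described here as 10 genes, Rgs2, Rgs3, Rgs4, Rgs5, Rgs10, Rgs12, Rgs14, Rgs16, Rgs17 and Rgs19, in the lenses of mice with a mutant βB2-crystallin and of wild type mice. The members are the 18 non-control probes whose RefSeq accession belongs to these genes, of 39429 different probes on the array, and all 10 genes had at least 1 probe. They were chosen on the measured difference of Rgs4 between the genotypes in these arrays, which was very large, and on membership of its family, so the knock-in against wild type values of the members are a description and carry no test. The question was whether the fall of Rgs4 extended to its family.

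RNA came from lenses of mice aged 3 months and was labelled with Cy3 for single-colour arrays. The knock-in group (3 arrays, replicates 1, 2 and 4) carried W151C, which puts cysteine in place of tryptophan at codon 151 of Crybb2, made with CRISPR/Cas9. The wild type group (3 arrays, replicates 1, 2 and 3) had no stated manipulation. The labels give neither strain, sex and zygosity nor the number of animals behind an array, so n = 3 counts arrays and p-values measure the spread between them, which may be technical.

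RGS proteins shorten signalling by receptors coupled to heterotrimeric G proteins. An activated receptor loads the Gα subunit with GTP, Gα and Gβγ then act on enzymes and channels, and the RGS domain speeds the hydrolysis of GTP on Gα. Members of the R4 group (here Rgs2, Rgs3, Rgs4, Rgs5 and Rgs16) act mainly on Gi and Gq, the R12 group (Rgs10, Rgs12, Rgs14) and the RZ group (Rgs17, Rgs19) mainly on the Gi class, and the R7 group, outside the members, works as a complex with Gβ5. Lens epithelial cells carry receptors of this kind, including muscarinic and purinergic receptors that release calcium.

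Upstream sequences were found for 9 of the 10 members in RefSeq (GRCm38.p6). The 4 shown belong to small R4 proteins: Rgs4, whose signal was far below wild type, its direct neighbour on the chromosome Rgs5, and Rgs2 and Rgs16, which were higher in knock-in lenses. Each is the 250 bases before the annotated start, 5′ to 3′ on the strand of the gene. Rgs4 lies at chr1:169747643-169747892 (minus strand), Rgs5 at chr1:169655251-169655500 (plus strand), Rgs2 at chr1:144004150-144004399 (minus strand) and Rgs16 at chr1:153740103-153740352 (plus strand). Capitals mark matches, on either strand, to any of 7 motifs: CRE (TGACGTCA), AP-1 (TGANTCA), an E-box (CACGTG), the CCAAT box (CCAAT), the GC box (GGGCGG), the TATA box (TATAAA) and a C/EBP-ATF element (TTGCATCA).
Rgs4: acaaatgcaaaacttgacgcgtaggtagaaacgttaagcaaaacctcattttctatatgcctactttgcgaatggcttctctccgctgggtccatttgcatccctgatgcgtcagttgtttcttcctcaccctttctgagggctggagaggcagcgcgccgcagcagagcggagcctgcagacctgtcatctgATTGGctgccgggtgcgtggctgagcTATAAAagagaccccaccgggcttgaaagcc
Rgs5: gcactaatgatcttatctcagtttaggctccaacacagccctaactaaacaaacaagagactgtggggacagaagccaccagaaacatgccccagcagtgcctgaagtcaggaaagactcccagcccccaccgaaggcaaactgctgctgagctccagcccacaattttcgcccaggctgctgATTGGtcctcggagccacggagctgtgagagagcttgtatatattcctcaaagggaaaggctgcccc
Rgs2: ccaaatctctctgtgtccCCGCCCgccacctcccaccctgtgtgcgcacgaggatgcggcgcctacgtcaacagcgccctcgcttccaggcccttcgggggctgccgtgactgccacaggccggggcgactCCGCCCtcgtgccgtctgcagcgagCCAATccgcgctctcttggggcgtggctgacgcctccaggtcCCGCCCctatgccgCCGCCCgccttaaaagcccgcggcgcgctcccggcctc
Rgs16: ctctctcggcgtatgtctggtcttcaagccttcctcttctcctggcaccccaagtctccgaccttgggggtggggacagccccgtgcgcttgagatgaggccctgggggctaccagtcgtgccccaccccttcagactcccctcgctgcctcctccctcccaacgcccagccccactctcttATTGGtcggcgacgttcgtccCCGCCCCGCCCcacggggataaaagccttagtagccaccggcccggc
All 4 windows held a CCAAT box, which 33.9% of the 32851 promoter windows of the same length also hold. Rgs4 had a TATA box whose first base lay 31 bases before the start, a motif found in 12.4% of windows, and no GC box, found in 32.7%. Rgs2 had 4 GC boxes and Rgs16 had 2 that overlap, and neither matched the TATA box. The GC content was 53.6% for Rgs4 and Rgs5, 72.4% for Rgs2 and 66.4% for Rgs16. These matches describe letters in a window and are not sites. No protein sequences were used here.

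Signals are given as log2 of the processed signal minus the 75th percentile of the array, so 0 is the 75th percentile and a difference of 1 is 2-fold. The arrays did not run alike: the 75th percentile before scaling was 698 on wild type array 3 and from 120 to 201 on the other 5, and wild type array 3 was scanned on another day. The 3 knock-in arrays shared a scan, wild type arrays 1 and 2 shared another on the same day, and no scan held both genotypes, so scan and genotype cannot be told apart. Well above background, Agilent's flag for a measurable spot, held for 45.5% to 58.4% of spots, and no spot was saturated. Of the 18 member probes, 11 were well above background on every array of at least 1 group. These cover 7 genes, and the probes of the other 3 (Rgs5, Rgs14 and Rgs17) were not well above background on any array. All 14 lens markers, such as Cryaa, Mip and Bfsp2, were well above background on at least 1 array and 13 of them on all 6.

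Rgs4, a small R4 protein that limits Gi and Gq signals and is removed quickly through its N-terminal cysteine, was low on all 3 knock-in arrays. Its brighter probe read -3.30, -2.88 and -2.47 on knock-in arrays 1, 2 and 4, and 2.91, 2.77 and 3.32 on wild type arrays 1, 2 and 3. The groups lay far apart, with the highest knock-in value more than 5 log2 units below the lowest wild type value. Knock-in lenses had a mean of -2.88 ± 0.42 (SD, n = 3) and wild type lenses one of 3.00 ± 0.28 (SD, n = 3), a difference of -5.88 (SE 0.26). It lies at the low end of the 12785 genes measured, level within its error with Pax4 at -5.88. Knock-in array 1 was not well above background for this probe, so the size is set partly against background. In whole lenses, fewer cells of a type and less RNA per cell cannot be told apart.

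The second Rgs4 probe gave the same picture. It read -4.62, -5.52 and -4.16 in knock-in and 2.57, 2.48 and 2.76 in wild type lenses. None of the knock-in arrays had it well above background, and the signal was at least 62.0-fold lower than in wild type, counting the lowest signal well above background on an array, or the probe's own signal if higher, as the knock-in level. Before scaling, the brighter probe had signals of 17.0, 27.4 and 34.0 in knock-in against 1066, 821 and 6969 in wild type lenses. The gap between the genotypes was therefore present in the unscaled signals of both probes. Both probes passed the background filter through the wild type group.

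**Figure D1:**
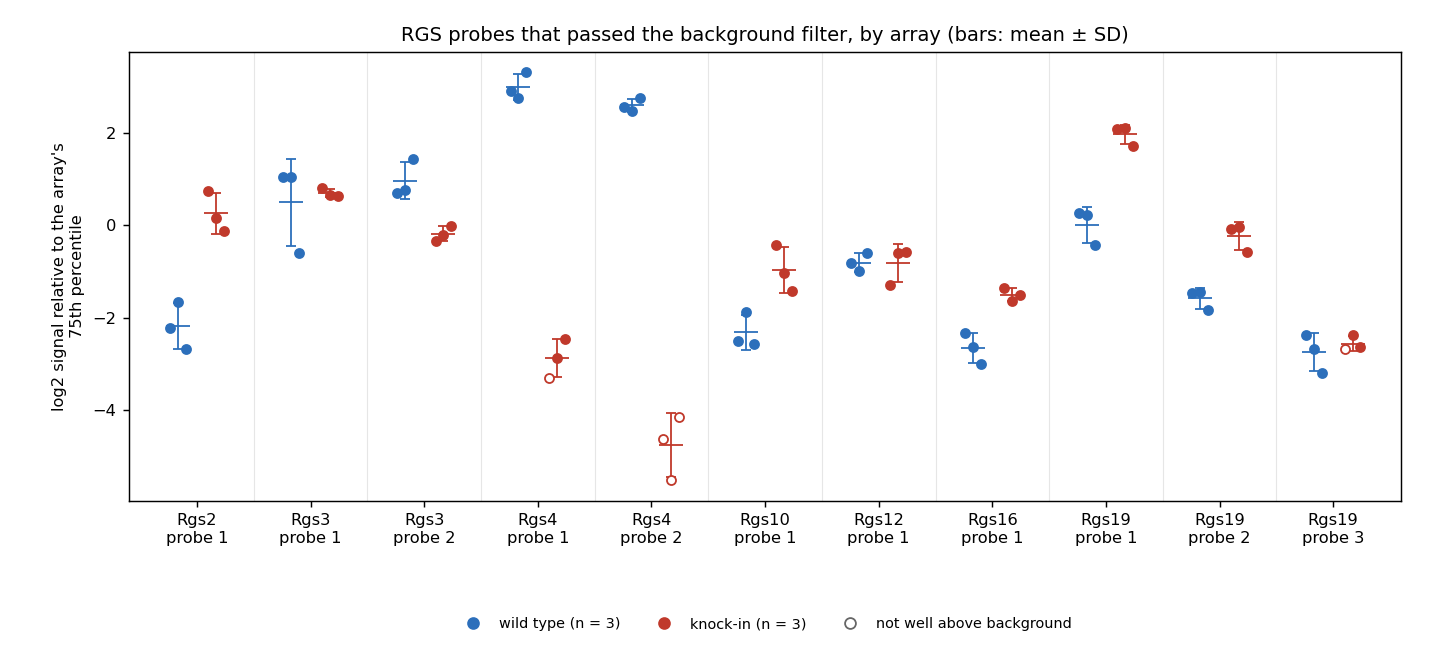
The plot gives the log2 signal relative to the 75th percentile of the array (vertical axis) for the 11 member probes that passed the background filter, with wild type arrays in blue, knock-in arrays in red, open points for arrays not well above background, and bars for the mean ± SD of 3 arrays. Both Rgs4 probes are far lower in knock-in lenses, while Rgs2, Rgs10, Rgs16 and 2 of 3 Rgs19 probes are higher on every knock-in array.

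Rgs5, the neighbour of Rgs4 and like it a small R4 protein, known as a marker of pericytes, was not well above background on any array. Its log2 signal ran from -5.87 to -4.19 in knock-in and from -6.48 to -5.61 in wild type lenses, so no difference can be given. In these lenses only the Rgs4 side of the pair gave a measurable signal.

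Rgs2, an R4 protein that acts mainly on Gq and is induced by many stimuli, was higher in the knock-in lenses. It read 0.75, 0.17 and -0.12 on knock-in arrays 1, 2 and 4 and -2.21, -1.67 and -2.67 on wild type arrays 1, 2 and 3. The groups did not overlap, and knock-in array 1 was the highest. The difference was 2.45 (SE 0.32), a ratio of 5.47. Its other probe was not well above background on any array. Before scaling, signals were 282, 225 and 173 in knock-in against 30.6, 37.8 and 110 in wild type lenses, so these groups were also apart without scaling.

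Rgs16, an R4 protein that like Rgs4 carries an N-terminal cysteine, was also higher. It read -1.36, -1.64 and -1.51 in knock-in and -2.34, -2.64 and -3.0 in wild type lenses, with no overlap. The difference was 1.16 (SE 0.21), a ratio of 2.23. Without scaling the groups did overlap, with 65.2, 64.3 and 66.1 in knock-in against 28.1, 19.2 and 87.2 in wild type lenses, so the order of wild type array 3 rests on the scaling.

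Rgs3, an R4 protein made in several isoforms, gave 2 measurable probes that differed from each other. The brighter probe read 0.80, 0.65 and 0.64 in knock-in and 1.05, 1.05 and -0.60 in wild type lenses. Wild type array 3 lay below the knock-in arrays and the other wild type arrays above them. The difference was 0.20 (SE 0.44), and -0.35 without wild type array 3. The second probe read -0.33, -0.20 and -0.01 in knock-in and 0.71, 0.78 and 1.43 in wild type lenses. Here every knock-in array was lower, with group means of -0.18 ± 0.16 (SD, n = 3) and 0.97 ± 0.40 (SD, n = 3). Both probes are assigned to the same transcript, so the probes do not settle a direction for Rgs3. The remaining probe, assigned to another Rgs3 transcript, was well above background on wild type array 3 only.

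**Figure D2:**
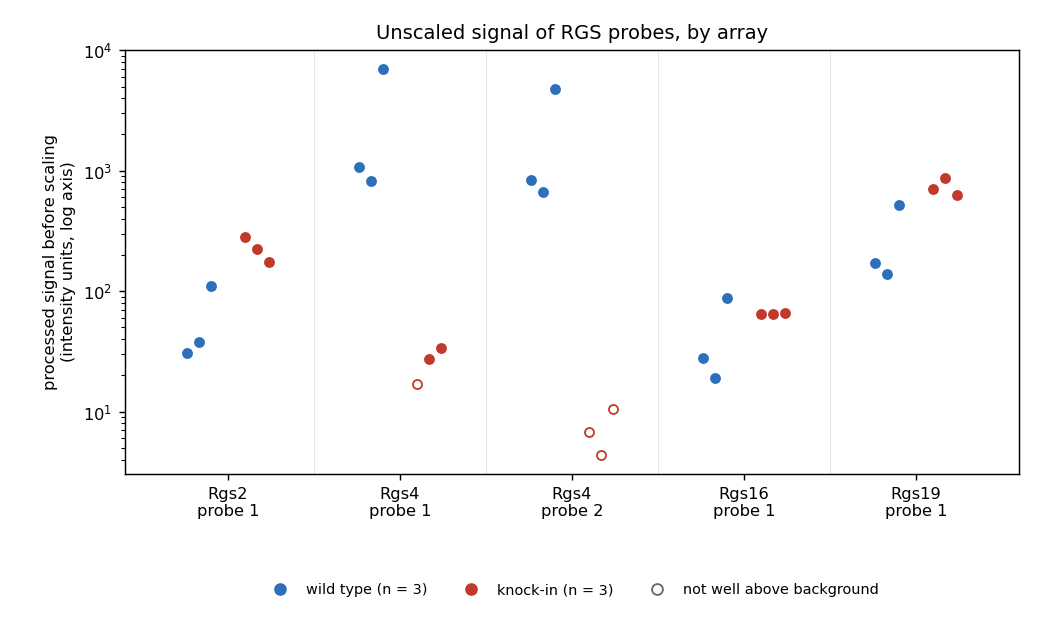
The plot shows the processed signal before any scaling (vertical log axis, intensity units) on each array for the 2 Rgs4 probes and the brightest probes of Rgs2, Rgs16 and Rgs19. Open points were not well above background. Wild type array 3 is the brightest wild type array for each probe, and the groups stay apart for Rgs4, Rgs2 and Rgs19 but overlap for Rgs16.

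Rgs10 is the smallest protein of the R12 group and is abundant in microglia and macrophages. It was higher in knock-in lenses, at -0.43, -1.04 and -1.41 on arrays 1, 2 and 4 against -2.50, -1.88 and -2.57 in wild type. The groups did not overlap and knock-in array 1 was again the highest. The difference was 1.35 (SE 0.30), a ratio of 2.56, on its single probe. Without scaling the groups overlapped, at 124, 97.7 and 70.7 in knock-in against 25.2, 32.6 and 118 in wild type lenses, so here too the place of wild type array 3 rests on the scaling.

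Rgs12 and Rgs14 are large R12 proteins that also bind Ras-type GTPases and, through a GoLoco motif, Gi subunits. The measurable Rgs12 probe read -1.30, -0.61 and -0.57 in knock-in and -0.82, -1.0 and -0.59 in wild type lenses. These groups overlapped fully. The difference was -0.02 (SE 0.24), smaller than its standard error. The other 2 Rgs12 probes and the Rgs14 probe were not well above background on any array.

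Rgs19, also called GAIP, is an RZ protein with a cysteine string that takes up palmitate, and it acts on Gi class subunits. Its brightest probe read 2.08, 2.10 and 1.73 in knock-in and 0.26, 0.22 and -0.43 in wild type lenses. The groups were clearly apart. The difference was 1.96 (SE 0.24), a ratio of 3.89. Unscaled signals were 710, 864 and 625 in knock-in and 171, 139 and 517 in wild type lenses, with no overlap.

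The 3 Rgs19 probes did not show the same size of difference. The second read -0.07, -0.03 and -0.58 in knock-in against -1.46, -1.44 and -1.85 in wild type lenses, again with no overlap, but its unscaled signals overlapped (160, 196 and 126 against 51.6, 44.3 and 194). The dimmest probe read -2.67, -2.38 and -2.63 against -2.39, -2.67 and -3.20, and overlapped. Means were -2.56 ± 0.16 (SD, n = 3) and -2.75 ± 0.41 (SD, n = 3) for that probe. Averaging the 3 probes gave a difference of 1.17 for Rgs19, against 1.96 for the brightest alone.

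Rgs17, the other RZ member, was not well above background on any array. It read -3.11, -4.00 and -4.25 in knock-in and -5.90, -5.05 and -6.50 in wild type lenses. Every knock-in value was higher, but all lie where the background decides the signal, so no fold is given.

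Of the 7 members measured, 5 were past an adjusted p of 0.05 in the limma fit over all genes with Benjamini-Hochberg adjustment (4 higher and 1 lower), beside 25.9% of all 12785 genes tested (13.3% higher and 12.6% lower). The arrays of the 2 genotypes were apart for the representing probe of the same number, 5 of 7, beside 45.9% of all genes (22.7% with knock-in arrays above and 23.1% below). The members were chosen on this contrast, and a gene bright in 1 group only enters the filter through that group, so nothing is read from these counts. The median difference of the 7 was 1.16, beside -0.036 over all genes. Rgs4 was the measured member with a large negative difference: Rgs2, Rgs10, Rgs16 and Rgs19 had positive differences, Rgs12 was near 0 and the Rgs3 probes disagreed.

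The directions of 5 members held over the alternative settings. The Rgs4 difference lay between -6.63 and -4.09 in 15 settings that measured it. Rgs2 ran from 1.43 to 2.71, Rgs19 from 1.17 to 2.08, Rgs10 from 0.76 to 1.58 and Rgs16 from 0.62 to 1.32 in 16 settings. Rgs12 and Rgs3 crossed 0, from -0.15 to 0.22 and from -0.48 to 0.48. On the scan day that both genotypes share, which leaves out wild type array 3, differences were -5.72 for Rgs4, 2.21 for Rgs2, 1.73 for Rgs19, 1.23 for Rgs10 and 0.99 for Rgs16.

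**Figure D3:**
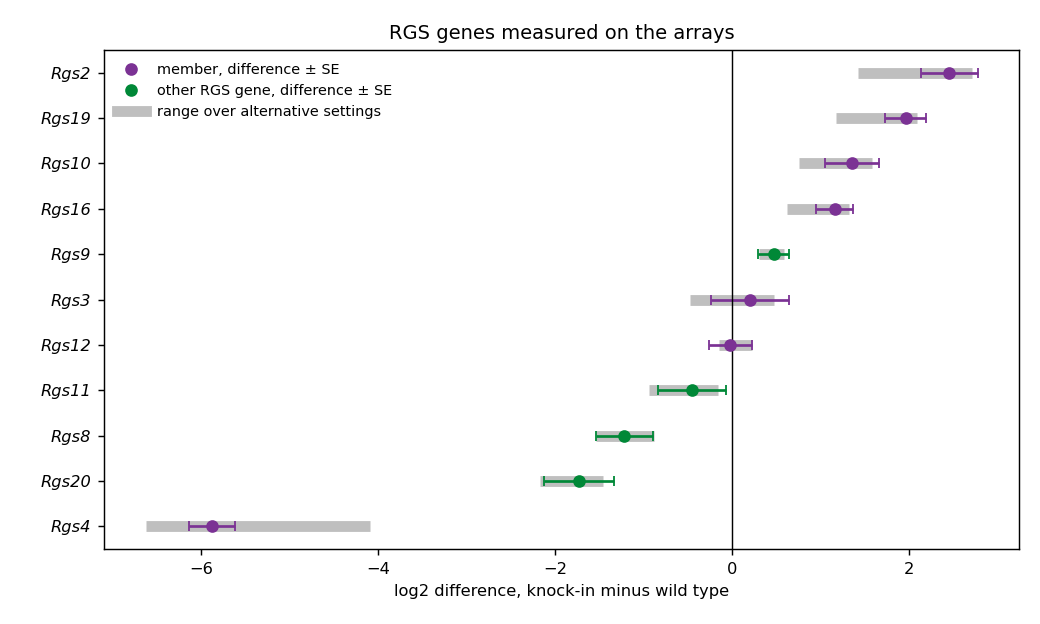
The horizontal axis gives the log2 difference (knock-in minus wild type) for each RGS gene measured, with the point and bar as difference ± SE and the grey band as the range over alternative settings. Rgs4 at -5.88 stands apart at the low end, Rgs20 and Rgs8 are the next lowest, and Rgs2 at 2.45 is the highest.

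Transcripts of tissues around the lens differed between arrays, and their part in the RGS values was not tested. The summed scaled signal of 10 retina markers was 71.4 on knock-in array 4, 2.70 and 3.24 on knock-in arrays 1 and 2, and from 0.619 to 0.806 on the wild type arrays. Knock-in array 4 therefore carried far more of these transcripts than any other array. Leaving out that array, the differences were -6.09 for Rgs4, 2.64 for Rgs2, 2.08 for Rgs19, 1.58 for Rgs10 and 1.16 for Rgs16, while the retina sums of the remaining knock-in arrays still exceeded those of wild type.

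Of 11 leukocyte markers on the array, 2 were higher and 1 lower of 9 tested (limma, adjusted p of 0.05 over all genes). This is 33.3%, beside 25.9% of all genes. Their summed signal was 10.96 to 19.9 in knock-in and 13.8 to 43.4 in wild type lenses. The higher were Tyrobp and C1qc, both mostly not well above background in wild type lenses. The lower was Itgam, which gave the largest part of each sum, so these markers had no single direction. The highest knock-in sum was that of array 1, where Rgs10 and Rgs2 were also highest. Without knock-in array 1 the differences were 1.09 for Rgs10 and 2.21 for Rgs2. Smooth muscle and pericyte markers summed to 16.8 to 28.9 in knock-in and 47.9 to 69.9 in wild type lenses, mostly from Acta2 in wild type. Of 4 of these tested, Acta2 fell by 2.24 (limma adjusted p = 0.00373) and Tagln rose by 2.70 (limma adjusted p = 0.0103), so the list had no single direction, and 6 of 11 (Myh11, Cnn1, Des, Actg2, Kcnj8 and Abcc9) were not well above background on any array. Fibroblast markers summed to 7.59 to 16.8 in knock-in and 2.67 to 3.59 in wild type lenses. Of 3 tested, Col1a1 rose by 5.06 and Col1a2 by 3.05 (limma, adjusted p under 0.05), while Pdgfra differed by -0.067 and did not pass. Lum was not well above background on any array. The share past the test was 50% for the smooth muscle and pericyte list and 66.7% for the fibroblast list, beside 25.9% of all genes. Both lists are small, so nothing is read from these shares.

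RGS genes outside the members were tested on this contrast, from a list set with earlier results of these data known. Of 13 RGS family genes and adaptors listed, 12 were on the array and 4 were measured. Rgs20 and Rgs8 fell, none rose, and Rgs9 and Rgs11 did not pass (2 of 4 lower, beside 12.6% of all genes). With the shared scan as a random block, or without the filter on dim probes, 0 passed in limma (1 of 4 and 3 of 12 at an unadjusted p under 0.05). The median of the 4 was -0.84, beside -0.036 over all genes.

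Rgs20, an RZ protein like Rgs19, read 0.98, 0.92 and 0.31 in knock-in and 2.79, 3.02 and 1.60 in wild type lenses. The groups were apart, with wild type array 3 nearest to the knock-in values. It fell by 1.73 on the log2 scale (SE 0.39, limma adjusted p = 0.0194). Rgs8, an R4 protein best known from neurons, read -0.43, 0.20 and 0.85 in knock-in and 1.36, 1.27 and 1.64 in wild type lenses. It fell by 1.22 (SE 0.32, limma adjusted p = 0.0327). Its dimmer probe was also lower on each knock-in array, but was not well above background on any of them. Without scaling the groups of the brighter Rgs8 probe overlapped, at 124, 231 and 339 in knock-in against 365, 289 and 2176 in wild type lenses. Rgs19 and Rgs20, of 1 group, thus had differences of opposite sign, 1.96 and -1.73.

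Both calls lay near the threshold and were lost on leaving out most single arrays. Over all genes the calls also dropped on leaving out any array but wild type 3, to between 1538 and 2531 from 3312. For Rgs20 the limma adjusted p was 0.0538 to 0.0655 on leaving out any array but wild type 3, and 0.162 with the shared scan as a random block (range over all settings 0.000283 to 0.162). For Rgs8 it was 0.0639 to 0.103 on leaving out array 1 or 2 of either genotype, and 0.295 with the random block (range 0.00402 to 0.295). Both differences stayed negative in every setting run.

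The R7 group works with Gβ5 and, in photoreceptors, ends the light response. Rgs9, its photoreceptor and striatal member, read -2.32, -2.43 and -2.13 in knock-in and -2.83, -2.53 and -2.93 in wild type lenses on its brightest probe. The difference was 0.47 (SE 0.18, limma adjusted p = 0.0951). The other Rgs9 probes differed by 0.35 and 0.10 and overlapped between the groups. Averaging the Rgs9 probes gave 0.31 (limma adjusted p = 0.243). Rgs11, known from retinal bipolar cells, read 2.49, 2.30 and 2.46 in knock-in and 3.44, 3.23 and 1.92 in wild type lenses. Wild type array 3 lay below the knock-in arrays and the other wild type arrays above them. The difference was -0.45 (SE 0.39, limma adjusted p = 0.425), and -0.92 without wild type array 3 (limma adjusted p = 0.00433; range over settings 0.00402 to 0.815).

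Rgs9bp, the membrane anchor of Rgs9 in photoreceptors, was read by 2 probes that did not pass the filter. The brighter probe was at -0.34 on knock-in array 4, the array with high retina markers. It lay at -4.81 and -4.01 on the other knock-in arrays and from -4.25 to -3.85 in wild type lenses. The remaining 7 genes on the array (Rgs1, Rgs6, Rgs7, Rgs13, Rgs18, Rgs22 and Rgs7bp) also did not pass the filter, and 4 of them (Rgs1, Rgs18, Rgs22 and Rgs7bp) were not well above background on any array.

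The partners of RGS proteins were described from 7 further lists, with 85 of 125 genes measured. Among these, 11 rose and 14 fell (29.4% past the test, beside 25.9% of all genes), and the median difference was -0.0016. The share is close to the background, so it is no result about these lists. Of 23 genes outside the members that passed and are named, Rgs20 and Rgs8 included, 9 still passed with normexp background correction (Rgs20, Gnaz, Gng2, Gnb1, Adcy7, Arrb1, Gpsm2, Adra2c and Metap1), 16 without the filter on dim probes, and 6 (Gna14, Gng2, Gnb1, Adcy7, Plcb1 and Adcy2) with the shared scan as a random block. The random block cannot separate scan from genotype, as no scan held both, so passing it does not exclude an effect of scan. Leaving out an array kept 13 to 23 of the named genes.

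Among the Gα subunits, which RGS proteins act on, 1 rose and 3 fell of 15 measured. Gnaz, a Gi class subunit that RZ proteins act on, read -0.37, -0.80 and -1.13 in knock-in and 1.49, 1.87 and 0.87 in wild type lenses and fell by 2.17 (SE 0.31, limma adjusted p = 0.00349). Gnao1, the subunit Go, fell by 1.56 (SE 0.30, limma adjusted p = 0.0109), with 2 knock-in arrays well above background, and with normexp the difference was -0.28 (adjusted p = 0.535). Gna14, of the Gq class, was not well above background in wild type lenses. On the processed signal its knock-in level was at least 3.36-fold higher than the background limit there (limma adjusted p = 0.000576). With normexp its log2 difference was only 0.61 (limma adjusted p = 0.342), less than that bound, so the size rests on the treatment of background. Gnat1, the α subunit of rod transducin and also 1 of the retina markers, was named after its value was seen and differed by 3.60 (SE 1.15, limma adjusted p = 0.0587), carried by knock-in array 4 at 3.13 against -1.47 and -1.12 on the other knock-in arrays and -4.06 to -2.99 in wild type. Gna12 fell (limma adjusted p = 0.0134) but was not well above background in knock-in lenses, so no fold is given. The Gi subunits differed by 1.06 for Gnai1 (limma adjusted p = 0.077), 0.14 for Gnai2 and 0.076 for Gnai3, and the Gq class subunits Gna11 and Gnaq by -0.032 and -0.48. None of these 5, named after their values were seen, passed. With the scan as a random block Gnaz (adjusted p = 0.058), Gnao1 (0.165) and Gna12 (0.176) did not pass, and the call of Gna12 was also lost without knock-in 2 (0.0531) or wild type 2 (0.0569).

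Of the Gβ and Gγ subunits, 2 rose and 3 fell of 12 measured. Gng2 read 1.59, 1.57 and 1.32 in knock-in and 3.50, 3.44 and 3.06 in wild type lenses and fell by 1.84 (SE 0.18, limma adjusted p = 0.00086). Gnb1, the main Gβ, read 4.31, 3.72 and 3.81 against 2.10, 1.93 and 2.15 and rose by 1.88 (SE 0.20, limma adjusted p = 0.00116). These 2 calls held in every setting run. The other Gnb1 probe differed by less, 0.55, and averaging the Gnb1 probes gave 1.22. Gng12 fell by 0.81 (limma adjusted p = 0.0109), but its other probe differed by 0.19, and the call was lost without knock-in 2 (0.0596) or wild type 1 (0.0502). Gngt2, the γ subunit of cone transducin, read -1.55, -2.71 and -0.03 in knock-in and -3.94, -3.78 and -6.11 in wild type lenses, where it was not well above background. It rose (limma adjusted p = 0.0308), but its size rests on single arrays: the difference was 3.18, 2.48 without knock-in 4 and 2.43 without wild type 3. The call was lost without knock-in 4 (0.0796) or knock-in 1 (0.0922), and with normexp (0.165). Gnb5, the partner of the R7 group, named after its value was seen, differed by -0.12 (SE 0.16, limma adjusted p = 0.62).

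Effectors of G proteins included 1 rise and 2 falls of 12 measured. Adcy7, an adenylyl cyclase of blood and immune cells, read -0.67, -0.22 and -0.96 in knock-in and -4.17, -4.83 and -4.22 in wild type lenses and rose by 3.79 (SE 0.27, limma adjusted p = 0.000262), with 1 wild type array well above background. With normexp its difference was 1.5 (limma adjusted p = 0.0376), so the size rests on the treatment of background. Plcb1, the phospholipase C that Gq activates, was not well above background in knock-in lenses. On the processed signal it was at least 1.74-fold lower (limma adjusted p = 0.000483). Adcy2 fell (limma adjusted p = 0.00216) from a level near background, so no fold is given. With normexp background correction Adcy2 and Plcb1 differed by -0.021 and -0.47 and did not pass (limma adjusted p = 0.982 and 0.30). The bound for Plcb1 therefore holds for the processed signal only.

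Receptor kinases and arrestins, which switch off the receptors themselves, held 1 rise and 1 fall of 8 measured. Grk5 rose by 0.83 (SE 0.17, limma adjusted p = 0.0133) and Arrb1, β-arrestin 1, fell by 1.52 (SE 0.38, limma adjusted p = 0.0263). Arrb1 read 2.00, 2.19 and 2.11 in knock-in and 4.16, 4.00 and 2.70 in wild type lenses. With normexp Grk5 differed by 0.40 (adjusted p = 0.474). Leaving out single arrays ended both calls, for Grk5 without knock-in 2 (0.0595) or wild type 1 (0.0569) and for Arrb1 on leaving out any array but wild type 3 (0.0721 to 0.0879).

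Proteins with an RGS-like domain or a GoLoco motif, together with Gα chaperones, held 1 rise and 2 falls of 15 measured. Gpsm2, a GoLoco protein that orients the mitotic spindle, read -2.13, -1.77 and -0.55 in knock-in and 1.13, 1.11 and 1.52 in wild type lenses. It fell by 2.73 (SE 0.40, limma adjusted p = 0.00403), and did not pass with the random block (0.0881). Arhgef1, a guanine nucleotide exchange factor with an RGS-like domain, rose by 0.79 (SE 0.14, limma adjusted p = 0.00869) and Gpsm3 fell by 0.93 (SE 0.22, limma adjusted p = 0.0244). The call of Arhgef1 was lost without knock-in 2 (0.0525), and that of Gpsm3 on leaving out array 1 or 2 of either genotype (0.0531 to 0.0714).

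Of 16 receptors coupled to Gi or Gq that were measured, 4 rose and 3 fell. The adenosine receptor Adora1 rose by 2.01 (SE 0.27, limma adjusted p = 0.003), the lysophosphatidic acid receptor Lpar6 by 1.32 (SE 0.29, limma adjusted p = 0.0168) and the muscarinic receptor Chrm1 by 0.71 (SE 0.17, limma adjusted p = 0.022). The adrenergic receptor Adra2c read 1.87, 2.17 and 2.01 in knock-in and 2.99, 3.02 and 3.43 in wild type lenses and fell by 1.13 (SE 0.19, limma adjusted p = 0.00625). Adora1 and Lpar6 were well above background on 2 wild type arrays, and with normexp they differed by 0.83 (adjusted p = 0.0972) and 0.76 (adjusted p = 0.289). Calls were lost for Lpar6 (0.0517 to 0.063 on leaving out any knock-in array or wild type 1) and Chrm1 (0.0543 to 0.0906 on leaving out array 1 or 2 of either genotype). With the random block Adora1 (0.0747) and Adra2c (0.0711) did not pass.

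Rgs4, Rgs5 and Rgs16 proteins are degraded through the cysteine branch of the N-degron pathway, in which the first methionine is removed, the cysteine is oxidised and Ate1 adds arginine. Of 7 genes of this pathway measured, 1 rose. Metap1, a methionine aminopeptidase, read 2.28, 2.46 and 2.42 in knock-in and 1.34, 1.31 and 1.48 in wild type lenses and rose by 1.01 (SE 0.15, limma adjusted p = 0.00412), and did not pass with the random block (0.0737). Arrays measure RNA, so these values say nothing of the stability of the proteins.

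**Figure D4:**
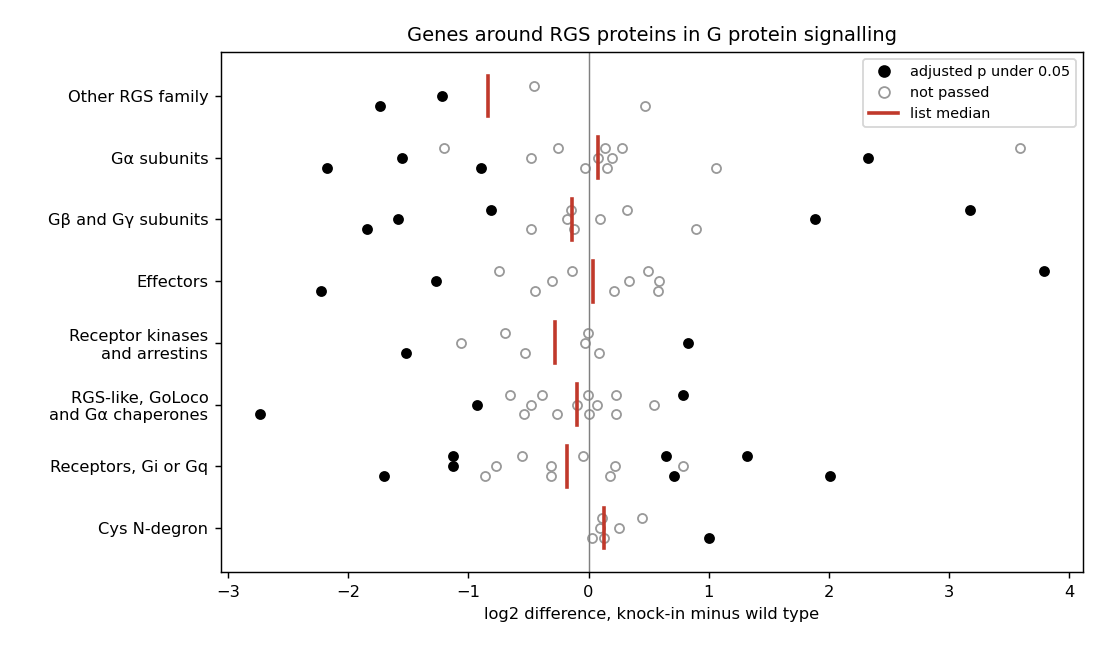
Each point is a measured gene, placed by its log2 difference (knock-in minus wild type, horizontal axis) in the list named on the vertical axis. Filled points passed an adjusted p of 0.05, red bars are list medians, and every list but the RGS family outside the members and the N-degron genes has passing genes on both sides of 0.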

How the data were processed

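Single-colour Agilent arrays of lens RNA were analysed from scanner files, 3 knock-in and 3 wild type arrays, grouped and numbered by their titles. The deposited intensity of a spot is the processed signal of Agilent's Feature Extraction software (11.0.1.1 per the file headers, 9.1 per the submitters' processing notes), from which local background is already subtracted. Median spot and background intensity stand beside it. Whether the authors scaled arrays to each other is not stated.

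The log2 processed signal minus the 75th percentile of the 43020 non-control spots was taken, outlier spots were left out and spots averaged. Probes well above background (in at least 50% of their spots) on every array of a group were kept, 21076 in number. Through RefSeq accessions without versions (GRCm38.p6), 27234 probes had a symbol, for 20659 genes. Of several probes of a gene, that with the highest mean signal stood for it. The 12785 genes were tested in limma 3.58.1 under R 4.3.3 (lmFit and eBayes, 4 residual degrees of freedom, Benjamini-Hochberg over all genes). An exact permutation test of 3 against 3 arrays cannot go below p = 0.1, so limma was used. On simulated arrays of 12782 genes 151 genes were called, 6 of them falsely, and recovery was 50.7% at a 2-fold change, 70.1% at 4-fold and 97.0% at 16-fold. The simulation used independent noise, few changed genes and no effect of scan. It checks the code, and its rates do not carry over to these arrays. The number of arrays limits the precision.

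Members and lists were chosen with earlier results of these data known. Named are all member probes, every measured RGS gene outside the members and, per other list, up to 4 passing genes with the smallest p. Within a group no spots were identical between arrays, and arrays correlated at 0.953 to 0.996 over genes. Alternatives covered scaling, background (normexp, offset 50, planned on mean signals where present and run on median signals), filters, outlier spots, probe averaging, scan (planned as slide, read from shared scan times), scan day, replicate number and leaving out each array.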

Additional observations from a re-analysis of the deposited data

How the results depend on the processing

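Of 16 alternatives, none reversed the direction of a member past the threshold or of a named gene that passed. With normexp background correction the numbers past the threshold were 1433 of all genes, 3 of the members, 1 of the other RGS genes and 10 of the pathway genes, against 3312, 5, 2 and 25, and the members' median was 0.62. With the shared scan as a random block (consensus correlation 0.56), which cannot separate scan from genotype, they were 620, 3, 0 and 6. Without the filter on dim probes 2002 genes and 0 other RGS genes passed (3 of 12 at an unadjusted p under 0.05, limma; with the random block 1 of 4), and 16 pathway genes where each probe had to exceed background on all 6 arrays. With the scan day as a block 5566 genes passed and the members' median was 0.99. This block gives the same differences as leaving out wild type array 3. Leaving out single arrays gave 1538 to 5661 genes, 4 to 5 members, 0 to 3 other RGS genes, 14 to 35 pathway genes and a members' median of 0.99 to 1.26. Other RGS genes were at 0 on leaving out array 1 or 2 of either genotype, with 2 or 3 at an unadjusted p under 0.05. The cause of these changes was not tested. Calls were 51.2% higher, against 40.9% with arrays centred on their median, and without the filter the median of all genes was 0.21.

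Replicate numbers 1 and 2 occur in both groups, but same-numbered arrays deviated together at correlations of only 0.17 and -0.22, so the numbers were not taken as pairs. With the replicate block 5446 genes, 40 pathway genes, 5 members and 3 other RGS genes passed, and the members' median was 0.99.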
